A study of Mus musculus with 6 samples.

Results

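The liver arrays of mice fed an extract of Boswellia serrata, the Indian frankincense tree, were treated as 1 group and set against those of mice on control diet, to describe the response that 2 different extracts had in common. All 6 arrays of the series entered: 4 on the fed side and 2 on the control side, assigned by their titles. The mice were of the Swiss-Webster strain, an outbred stock, and total RNA came from liver. On the fed side, 2 arrays came from mice given fraction 1, a hexane fraction, and 2 from mice given fraction 2, a methanol fraction, each as 1% of the diet for 21 days. Hexane takes up nonpolar compounds and methanol more polar ones. The labels do not give the sex or age of the mice, the composition of a fraction, or whether a replicate was 1 animal or a pool, so every p-value below measures only the spread between these samples. Precision is limited by the few arrays: log2 differences had a standard error of 0.22 at the median.

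Liver cells meet compounds of the diet with enzymes that oxidize them, conjugate them and move them out. The nuclear receptors CAR and PXR raise cytochromes P450 of the Cyp2b, Cyp2c and Cyp3a families, and the transcription factor Nrf2 raises glutathione S-transferases and other enzymes against electrophiles. A separate programme of rodent liver follows the pulses of growth hormone in males: it keeps genes such as Hsd3b5, Slco1a1 and Elovl3 high through STAT5b. The resin's boswellic acids are best known as inhibitors of 5-lipoxygenase, the enzyme of leukotriene synthesis that Alox5 encodes.

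Each array gave 1 signal per probe set, the group of short probes for 1 transcript. Levels below are signals in array units, and changes are differences of log2(signal + 16), which understates the change of dim probe sets. For each gene the brightest probe set with a single symbol was used. A gene is named as called, or said to have risen or fallen, where limma gave a Benjamini-Hochberg adjusted p under 0.05 over 14755 tested probe sets. Hepatocyte transcripts were present in all 6 arrays: Alb, serum albumin, lay between 18755 and 27250 units. Actin control probes, whose 3'/5' ratio rises as RNA degrades, gave 3.87 for control replicate 2 against 2.13 to 2.64 elsewhere. Control replicate 1 and fraction 2 replicate a were scanned in batch 2 and the other 4 arrays in batch 1, so each batch held 1 control array. By chip lot, control replicate 2 and fraction 1 replicate a were in lot 1, and control replicate 1 and fraction 2 replicate a in lot 2. Replicate b of each fraction was in lot 3, which held no control array. In bulk liver RNA, fewer cells of a type and less RNA per cell cannot be told apart.

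In fed liver, 25 probe sets rose and 6 fell, which is 0.169% and 0.0407% of those tested. They stood for 18 genes that rose and 6 that fell, plus 3 probe sets without a single symbol. Cyp2c55 and Cyp2b10 led the increases and Hsd3b5 and Serpina12 the decreases. By the brightest probe set the called genes were 14 higher and 6 lower. All 31 called probe sets kept the fed arrays apart from the controls, with no overlap in either direction. Within scan batch 1 and scan batch 2, Cyp2c55 changed by 4.69 and 4.84, Cyp2b10 by 3.06 and 3.28, Hsd3b5 by -6.95 and -4.57 and Serpina12 by -2.58 and -1.41. The batch 2 values set 1 fed array, fraction 2 replicate a, against 1 control array. Batch 2 held no fraction 1 array, so a difference between the batches cannot be told apart from one between the fractions. Centring each array on its median gave 21 higher and 2 lower, a share of 91.3% higher against 80.6% in the values as deposited.

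Cytochromes P450 held the largest increases. Cyp2c55, an enzyme that oxidizes arachidonic acid and foreign compounds, read 217 and 269 units in the controls, 9466 and 8471 after fraction 1, and 6645 and 6040 after fraction 2. All 4 fed arrays were far above both controls, and the nearest pair, fraction 2 replicate b and control replicate 2, still differed 21.3-fold. The fold change of Cyp2c55 was 29.3, or 4.87 ± 0.15 (SE) on the log2 scale, with a limma adjusted p of 5.22e-06. Cyp2b10, the classical target of CAR in mouse liver, read 283 and 509 in the controls, 6083 and 8063 after fraction 1, and 2886 and 2713 after fraction 2. It rose by 3.49 ± 0.23 (SE), 11.2-fold, with a limma adjusted p of 0.000659. The other Cyp2b10 probe sets on the array gave 3.47 and 2.86. Cyp2b probe sets of this kind may take up RNA of near-identical family members, so the share of Cyp2b10 itself is uncertain.

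Cyp2g1, a cytochrome P450 best known from olfactory mucosa, was at 244 and 254 in the controls and between 836 and 1211 in the fed arrays. Its change was 1.92 ± 0.17 (SE), with a limma adjusted p of 0.00275. The nearest fed and control arrays of Cyp2g1 stood 3.16-fold apart. A probe set annotated to both Cyp2a5 and Cyp2a4, steroid and coumarin hydroxylases, cannot be given to either gene. It read 4656 and 3218 in the controls and 14069 to 19667 in the fed arrays, a change of 2.10 ± 0.15 (SE).

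The promoters of the leading genes are shown so that both ends of the response can be compared by sequence. They come from RefSeq, assembly GRCm38.p6, and run from 250 bases before to 50 bases after the start of transcription: chr19:39006769-39007068 on the plus strand for Cyp2c55, chr7:25897408-25897707 on the plus strand for Cyp2b10, chr3:98645485-98645784 on the minus strand for Hsd3b5 and chr12:104044394-104044693 on the minus strand for Serpina12. Ugdh, chr5:65435793-65436092 on the minus strand, was added after its matches were seen. Capitals mark matches to the antioxidant response element TGACNNNGC, which Nrf2 binds, on either strand.
Cyp2c55: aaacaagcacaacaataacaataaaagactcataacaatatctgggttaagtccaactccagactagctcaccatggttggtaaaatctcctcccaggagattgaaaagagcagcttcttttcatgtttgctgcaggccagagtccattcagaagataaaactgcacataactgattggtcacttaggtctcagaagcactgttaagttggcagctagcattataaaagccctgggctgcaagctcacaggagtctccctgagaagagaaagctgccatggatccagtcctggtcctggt
Cyp2b10: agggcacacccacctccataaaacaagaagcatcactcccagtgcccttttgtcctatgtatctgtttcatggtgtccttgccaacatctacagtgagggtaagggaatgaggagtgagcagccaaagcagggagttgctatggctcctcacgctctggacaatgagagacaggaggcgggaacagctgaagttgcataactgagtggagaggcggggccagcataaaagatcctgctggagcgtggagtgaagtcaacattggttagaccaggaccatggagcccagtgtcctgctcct
Hsd3b5: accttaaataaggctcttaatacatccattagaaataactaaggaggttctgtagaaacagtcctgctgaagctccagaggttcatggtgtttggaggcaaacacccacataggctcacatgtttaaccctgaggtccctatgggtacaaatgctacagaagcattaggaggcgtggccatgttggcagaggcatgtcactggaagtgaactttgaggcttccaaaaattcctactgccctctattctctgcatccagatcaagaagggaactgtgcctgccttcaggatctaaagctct
Serpina12: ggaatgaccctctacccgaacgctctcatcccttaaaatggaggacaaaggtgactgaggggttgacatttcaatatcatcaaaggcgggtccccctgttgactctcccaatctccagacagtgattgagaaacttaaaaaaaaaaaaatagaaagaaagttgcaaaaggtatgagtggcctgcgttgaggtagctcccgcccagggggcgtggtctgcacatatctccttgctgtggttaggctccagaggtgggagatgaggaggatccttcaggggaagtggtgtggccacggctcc
Ugdh: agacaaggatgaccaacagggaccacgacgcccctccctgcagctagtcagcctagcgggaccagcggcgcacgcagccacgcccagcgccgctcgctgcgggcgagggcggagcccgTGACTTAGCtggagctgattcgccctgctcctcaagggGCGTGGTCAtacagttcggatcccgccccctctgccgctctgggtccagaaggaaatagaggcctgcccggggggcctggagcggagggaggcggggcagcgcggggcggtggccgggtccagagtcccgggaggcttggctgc
Each sequence reads 5′ to 3′ along its gene. Of the 20 called genes, 16 were searched and the other 4 were not used here. The element was found in 2 of the 16, Ugdh with 2 matches and Btbd2 with 1, a share of 12.5% beside 12.4% of all 32851 promoters in the same table. The STAT5 element TTCNNNGAA was found in 0 of the 16, beside 8.3% of all promoters. The E-box CACGTG occurred in 1, Gadd45b, a share of 6.25% beside 7.15%. No motif overlapped another in the sequences shown. These are counts of letters in a short window and say nothing of what binds elsewhere.

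**Figure D1:**
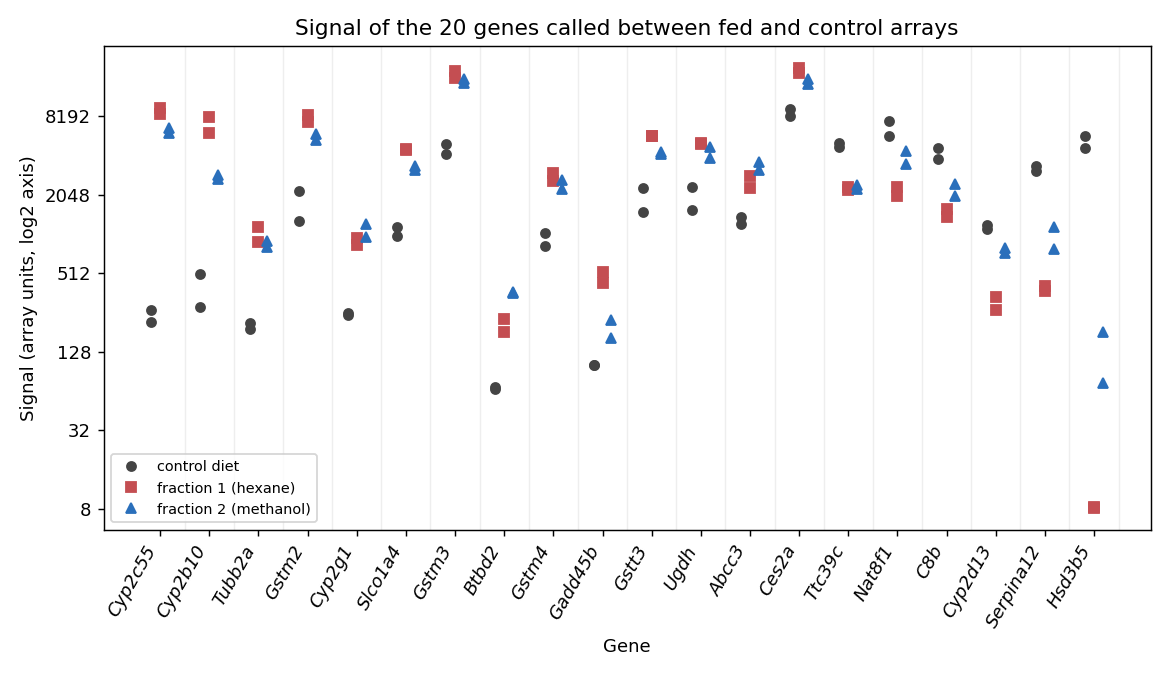
Signal in array units, on a log2 axis, of the 20 genes called between fed and control arrays. Each point is 1 array: 2 on control diet (circles), 2 after fraction 1 (squares) and 2 after fraction 2 (triangles). In every gene the 4 fed arrays lie on the same side of both controls, and Hsd3b5 spans the widest range, from 8.2 to 5754 units.

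Among conjugating enzymes, 4 of 19 tested glutathione S-transferases and 1 of 17 glucuronidation and sulfation enzymes rose. Gstm3, a mu class glutathione S-transferase, read 5042 and 4182 in the controls, 18175 and 16060 after fraction 1, and 15674 and 14697 after fraction 2, a change of 1.81 ± 0.12 (SE) with a limma adjusted p of 0.000659. The lowest fed array stood 2.91-fold above the highest control array. Its second probe set rose by 3.62. Gstm2 went from 2172 and 1288 to between 5413 and 8309, a change of 1.98 ± 0.20 (SE). Gstm4 went from 1050 and 828 to between 2257 and 3020, a change of 1.47 ± 0.16 (SE). In each of these enzymes the lowest fed array was more than 2-fold above the highest control array. Gstt3, of the theta class, lay at 2322 and 1518 in the controls and at 4230 to 5811 in the fed arrays (1.40 ± 0.18, SE). A probe set shared by Gsta1, Gsta2 and Gm3776 went from 3534 and 4298 to between 10165 and 13360 (1.63 ± 0.13, SE). The brightest Gstm1 probe set read 19034 and 16297 in the controls and 17921 to 21759 in the fed arrays and was not called, at 0.18 ± 0.10 (SE), while a dimmer one rose by 1.07. Mu class genes are close in sequence, and their probe sets may share RNA.

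Enzymes and pumps beyond the transferases were also among the called genes. Ugdh, which makes UDP-glucuronic acid for glucuronidation, read 2332 and 1551 in the controls and 3893 to 5106 in the fed arrays (1.28 ± 0.18, SE; limma adjusted p 0.0426). Ces2a, a carboxylesterase of the endoplasmic reticulum, went from 8270 and 9321 to between 14422 and 19173 (0.92 ± 0.10, SE), the smallest change among the called probe sets. Slco1a4, an organic anion uptake transporter of the hepatocyte, read 1168 and 989 in the controls, 4519 and 4586 after fraction 1, and 3180 and 3373 after fraction 2, a change of 1.83 ± 0.14 (SE) with a limma adjusted p of 0.00116. Abcc3, an export pump of the sinusoidal membrane, went from 1372 and 1221 to between 2287 and 3618 (1.17 ± 0.16, SE). Fed and control arrays stayed apart in all 4 of these genes. Abcb1a, another export pump, read 256 and 263 in the controls and 356 to 475 in the fed arrays without being called (0.69 ± 0.18, SE; limma adjusted p 0.232).

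The remaining increases were of other kinds. Tubb2a, a beta tubulin, read 191 and 213 in the controls and 819 to 1149 in the fed arrays, a change of 2.13 ± 0.18 (SE) with a limma adjusted p of 0.00187. Tubb4b, another beta tubulin, lay at 1606 and 1060 in the controls and 2396 to 3829 in the fed arrays and was not called (1.15 ± 0.20, SE; limma adjusted p 0.0662, and 1.45 with 0.0267 without control replicate 1). Btbd2, a BTB domain protein, went from 68.5 and 66.3 to between 183 and 371 (1.80 ± 0.21, SE). Both controls were below 139 units, the lowest median of an array, so the fed arrays alone could have brought Btbd2 into the test. Without the filter on dim probe sets it was not called (limma adjusted p 0.0649). Gadd45b, a stress and growth arrest gene that CAR activators are known to raise, was at 101 in both controls, 432 and 527 after fraction 1, and 223 and 165 after fraction 2. The controls of Gadd45b too were below 139 units, and it was not called without the filter (limma adjusted p 0.126). Its change of 1.45 ± 0.21 (SE) had a limma adjusted p of 0.0454, and it lost its call when any 1 array was left out. The next Gadd45b probe set gave -0.26, so its direction is not shared between probe sets. A probe set without a symbol read 116 and 168 in the controls, 2277 and 2763 after fraction 1, and 484 and 540.0 after fraction 2 (2.89 ± 0.20, SE).

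Bola2, Fibp, Gstm1 and Insig2 were called only through dimmer probe sets. The brightest Bola2 and Fibp probe sets gave 0.18 and -0.31, and their dimmer ones 1.45 and 1.91. The direction of Fibp is thus not shared between these probe sets. Its called probe set read at most 43.0 units in the controls, below 139, the lowest median of an array. In the fed arrays it read 169 to 229, so these alone could have brought it into the test. It was not tested with the filter at the 60th percentile. For Insig2, which holds back the SREBP proteins of sterol synthesis, all 3 probe sets were higher: 1.16 for the brightest (limma adjusted p 0.0582), and 1.45 and 1.57 for the called ones.

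The largest change of all was a decrease. Hsd3b5, a steroid 3-keto reductase of male mouse liver, read 4685 and 5754 in the controls, 8.2 and 8.3 after fraction 1, and 182 and 74.4 after fraction 2. Both extracts left the signal far under the control level, and the nearest arrays, control replicate 1 and fraction 2 replicate a, stood 23.7-fold apart. The log2 change was -6.51 ± 0.30 (SE), with a limma adjusted p of 8.4e-05. Fraction 1 signals were below the pseudocount, so the size depends on it: -7.30 with a pseudocount of 1 and -5.51 with 64. Serpina12, which encodes the secreted serpin vaspin, read 3100 and 3410 in the controls, 377 and 408 after fraction 1, and 1158 and 792 after fraction 2. It fell by 2.37 ± 0.19 (SE), with a limma adjusted p of 0.00136, and the nearest arrays differed 2.65-fold.

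The other 4 decreases were smaller. Cyp2d13, a cytochrome P450, went from 1115 and 1191 to between 268 and 805 (-1.23 ± 0.17, SE; limma adjusted p 0.0394). C8b, the beta chain of complement component 8, went from 3826 and 4708 to between 1377 and 2490 (-1.22 ± 0.16, SE). Nat8f1, an N-acetyltransferase family member, went from 5775 and 7512 to between 1985 and 4411 (-1.17 ± 0.16, SE). Ttc39c, a tetratricopeptide repeat protein, had the most even decrease: 4749 and 5104 in the controls, 2345 and 2208 after fraction 1, and 2279 and 2431 after fraction 2 (-1.08 ± 0.13, SE). Cyp2d13 was called in 0 of the 6 fits that left out an array, and C8b, Nat8f1 and Ttc39c in 1 of 6. Cyp2c55, Cyp2b10, Tubb2a, Gstm2, Cyp2g1, Slco1a4, Gstm3, Serpina12 and Hsd3b5 were called in all 6. Of the 31 called probe sets, 14 were called in all 6. Among the increases, Ces2a and Gstm4 were called in 3, Btbd2 and Gstt3 in 2, and Ugdh and Abcc3 in 1. With the fed side fitted as 1 group, the spread between the fractions enters the error: Serpina12 then lost its call (limma adjusted p 0.0808), as did C8b (0.127), Nat8f1 (0.271), Cyp2d13 (0.411), Gadd45b (0.324), Btbd2 and Abcc3 (0.0808 each), and Gstt3, Ugdh and Ces2a (0.0569 each). Without control replicate 1, Gadd45b and Cyp2d13 lost their calls (limma adjusted p 0.0559 and 0.0533). Without control replicate 2, Gstm4, Gadd45b, Ugdh, Abcc3 and the 4 smaller decreases did (0.0618 to 0.111). Without fraction 1 replicate a, Gstm4 was the exception among these 11 genes (0.0561 to 0.109 in the others), without fraction 1 replicate b Ces2a was (0.0535 to 0.203), and without fraction 2 replicate b Gstm4 was (0.0708 to 0.117). Without fraction 2 replicate a all 11 lost their calls (0.0676 to 0.133).

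The extracts were then compared within the fed side; both rest on the same 2 control arrays, so the values are given side by side. Hsd3b5 changed by -7.75 after fraction 1 and -5.28 after fraction 2, and Serpina12 by -3.00 and -1.75. Cyp2b10 changed by 4.15 and 2.83, and Gadd45b by 2.08 and 0.83. Cyp2c55 was closer, at 5.12 and 4.62, as were Gstm3 at 1.89 and 1.72 and Ttc39c at -1.11 and -1.06. Btbd2, Cyp2g1 and Abcc3 had the larger change after fraction 2, at 2.19, 2.06 and 1.37 against 1.40, 1.78 and 0.97. In 28 of the 31 called probe sets the size was larger after fraction 1. Between the fractions themselves, 2 probe sets of those tested were called by limma (0.0136%), and 1 of them was among the 31: the one without a symbol, which was 2.26 higher after fraction 1 (adjusted p 0.0445). The other was a probe set annotated to both Snurf and Snrpn. With 2 arrays per fraction, so few adjusted calls do not show that the extracts act alike. The call of the probe set without a symbol was lost, at adjusted p 0.0548 to 0.190, under quantile normalization, median centring, a pseudocount of 1, no filter, no variance trend, a block for scan batch or for the replicate letter, and in scan batch 1 alone. It was lost as well with any 1 of the 4 fed arrays left out (0.0655 to 0.477). For Gstm3 the difference of 0.17 had a 95% interval from -0.14 to 0.48, and for Ttc39c the difference of -0.05 had one from -0.39 to 0.29. Those intervals bound the difference and do not show that the extracts act alike.

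**Figure D2:**
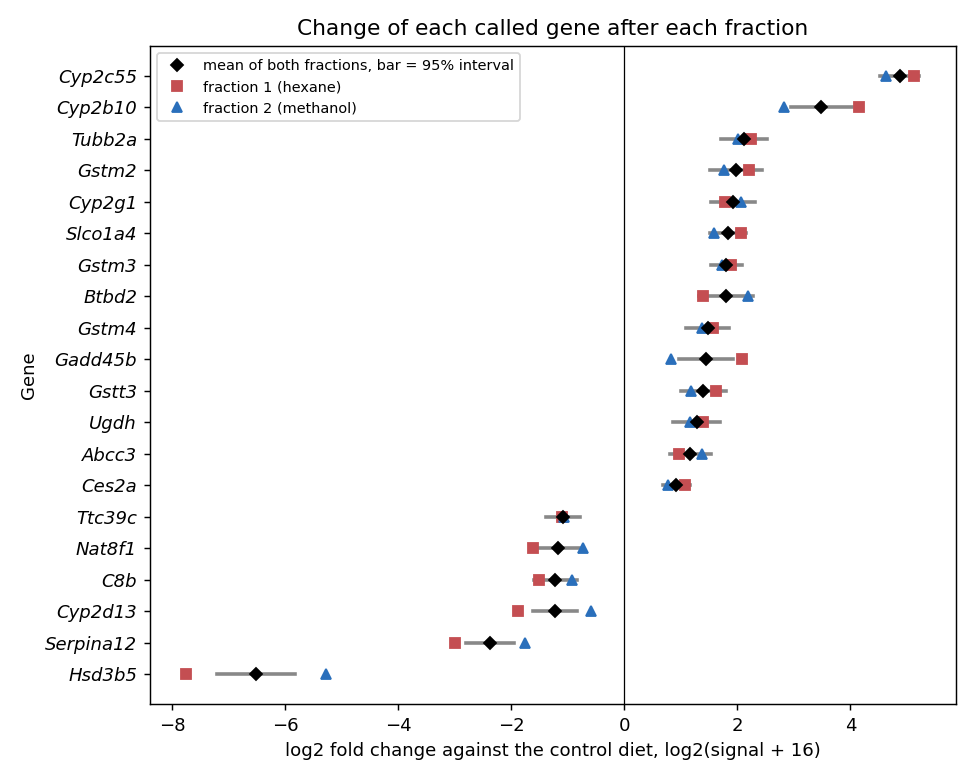
Log2 fold change of each called gene against control diet. Diamonds give the mean of both fractions with the 95% interval of the limma fit as a bar, squares fraction 1 and triangles fraction 2. Most squares lie farther from 0 than the triangles, and Btbd2, Cyp2g1 and Abcc3 are the exceptions.

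A count without a test asked how many features kept all fed arrays on one side. The lowest fed array lay above the highest control array in 1175 probe sets, 7.96% of those tested, and the highest fed array lay below the lowest control array in 1512, 10.2%. An exact permutation test of 4 against 2 arrays has 15 arrangements and cannot go below 0.0667, so such a gap alone cannot pass a threshold of 0.05. Per gene the counts were 723 above (7.85%) and 1027 below (11.2%) of 9209. Median centring turned the balance, to 999 genes above and 712 below, so the excess of lower genes depends on the scaling of the arrays. Gaps of at least 2-fold were far fewer: 31 probe sets above (0.21%) and 9 below (0.061%). Of these 40, limma called 20, with 18 higher and 2 lower. Of the 13 with a wide gap upward that were not called, 11 had both controls under 100 units.

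Wide gaps downward without a call included 4 named genes. Ptgds, a prostaglandin D2 synthase and lipid carrier, read 785 and 751 in the controls, 84.3 and 203 after fraction 1, and 153 and 267 after fraction 2, a difference of -2.12 ± 0.33 (SE) with a limma adjusted p of 0.0582. Adgrv1, an adhesion receptor, read 522 and 686 in the controls and 30.8 to 221 in the fed arrays (-2.19 ± 0.46, SE). Mrtfb, a coactivator of serum response factor, read 140 and 204 in the controls and 19.8 to 29.4 in the fed arrays (-2.16 ± 0.52, SE). Sla2, a Src-like adaptor protein of lymphocytes, lay at 211 and 159 against 27.4 to 64.4 (-1.76 ± 0.43, SE). Every fed signal of Mrtfb and Sla2 was below 139 units, the lowest median of an array. The filter needed only 2 arrays, so the controls alone could have brought both into the test. Neither was tested with the filter at the 60th percentile. Their size depends on the pseudocount: -2.69 and -2.10 with a pseudocount of 1, and -1.38 and -1.21 with 64. Ptgds and Adgrv1 passed the threshold without fraction 1 replicate b, at -2.40 (adjusted p 0.0254) and -2.66 (0.0124). Ptgds also passed with scan batch (-2.21, 0.0482), chip lot (-2.59, 0.00785) or the replicate letter (-2.12, 0.0112) as a block and with a pseudocount of 64 (-1.85, 0.0394), and Mrtfb without a variance trend (0.0371).

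Gene lists follow, read against all 9209 genes, whose median change was -0.05. Of all 9209, 7.85% had all fed arrays above the controls and 11.2% below. A difference above 0 was found in 3937 genes and one under 0 in 5272. Of 17 tested CAR and PXR target enzymes, 3 rose (Cyp2c55, Cyp2b10 and Ces2a), 0 fell, 6 had all fed arrays above the controls and 0 below. The median of the list was 0.43. It was 0.27 when control replicate 1 was dropped, 0.28 when fraction 2 replicate b was, and 0.26 with a block for scan batch. Aldh1a7, an aldehyde dehydrogenase, was one of the 6 without a call, at 6327 and 6921 in the controls and 8965 to 12011 in the fed arrays (0.62 ± 0.11, SE; limma adjusted p 0.0733). Cyp3a11, the classical PXR target, read 13638 and 18291 in the controls and 15548 to 18337 in the fed arrays. Its difference of 0.07 ± 0.13 (SE) turned to -0.14 without control replicate 1. Cyp1a2, a target of the aryl hydrocarbon receptor, lay at 8118 and 5421 in the controls and 4365 to 7731 in the fed arrays (-0.24 ± 0.20, SE, and 0.05 without control replicate 1).

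Nrf2 target genes had 28 tested members: 5 rose (Gstm2, Gstm3, Gstm4, Ugdh and Abcc3), 0 fell, and 13 had all fed arrays above the controls against 0 below. Their median was 0.42 (0.27 without control replicate 2), with 22 of the 28 above 0. Of 19 glutathione S-transferases, 4 rose and 8 had all fed arrays above the controls, but 2 had them below. Their median was 0.18; dropping control replicate 1 gave 0.28, dropping control replicate 2 gave 0.091 and dropping fraction 1 replicate a gave 0.12. Of 17 glucuronidation and sulfation enzymes Ugdh rose, 3 had all fed arrays above the controls and 4 below, with a median of 0.0060 (0.14 when control replicate 1 was dropped, -0.039 when replicate 2 was). Of 16 hepatic transporters, Slco1a4 and Abcc3 rose, and with median centring 4 had all fed arrays above the controls and 4 below. In the values as deposited 4 had them above (25.0%) and 6 below (37.5%), beside 7.85% and 11.2% over all genes. One of those 6 was Slc22a7, an organic anion transporter, at 959 and 1815 in the controls and 324 to 566 in the fed arrays (-1.77 ± 0.30, SE; limma adjusted p 0.0649). Metallothioneins, zinc-binding proteins, were higher in every fed array without a call. Mt1 and Mt2 were counted in the list of acute phase proteins, which had 28 tested members, 0 called and a median of -0.12. In that list 2 genes had all fed arrays above the controls (7.14%) and 7 had them below (25.0%), beside the same shares over all genes. With quantile normalization 1 had them below. Mt1 read 5210 and 2940 in the controls and 7499 to 19885 in the fed arrays (1.47 ± 0.26, SE). Mt2 read 2647 and 949 in the controls and 3318 to 8611 in the fed arrays (1.64 ± 0.36, SE). Both passed the threshold without control replicate 1, at 1.88 (limma adjusted p 0.0267) and 2.37 (0.0112), and so did Slc22a7, at -2.22 (0.0267). Slc22a7 was also called with scan batch as a block (-1.98, 0.00213), chip lot as a block (-1.95, 0.0121) and in scan batch 1 alone (-2.03, 0.0397).

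Male-biased liver genes were the list with the lowest median. Of 21 genes, 3 fell (Hsd3b5, Serpina12 and C8b), 0 rose, 15 had all fed arrays below the controls and 0 above, 21 had a difference under 0, and the median was -0.93. The list median was -1.51 after fraction 1 and -0.49 after fraction 2, and 14 genes had all fed arrays below the controls with median centring. Slco1a1, an organic anion uptake transporter, read 2815 and 2903 in the controls, 398 and 107 after fraction 1, and 1994 and 1469 after fraction 2 (-2.20 ± 0.41, SE; limma adjusted p 0.0942). The Slco1a1 difference was -3.67 after fraction 1 and -0.73 after fraction 2, and it passed the threshold without fraction 1 replicate a (-2.64, limma adjusted p 0.00348) or replicate b (-1.76, 0.0254), and with the replicate letter as a block (0.0420). Ugt2b38, a glucuronosyltransferase, went from 251 and 322 to between 78.1 and 112 (-1.49 ± 0.25, SE), -1.64 after fraction 1 and -1.33 after fraction 2. Elovl3, a fatty acid elongase, lay at 670 and 693 in the controls and 219 to 476 in the fed arrays (-1.22 ± 0.23, SE). Cyp7b1, an oxysterol hydroxylase, lay at 3689 and 3955 in the controls and 1055 to 2655 in the fed arrays (-1.08 ± 0.18, SE). None of these 4 was called. Of 12 female-biased genes, 0 were called and 0 kept the fed arrays apart from the controls in either direction. Their median was 0.09 (-0.053 without control replicate 1 and up to 0.27 with another array left out). By fraction the median differed in sign, at 0.47 after fraction 1 and -0.20 after fraction 2. The lists were drawn up with earlier results of these arrays known, so their direction is a description.

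Of 18 tested genes of the growth hormone and IGF1 axis, 0 were called and 4 had all fed arrays below the controls. The 4 are 22.2%, beside 11.2% over all genes. Ghr, the growth hormone receptor, read 8096 and 7200 in the controls, 3751 and 2957 after fraction 1, and 5599 and 5741 after fraction 2 (-0.81 ± 0.14, SE; limma adjusted p 0.0662). The next Ghr probe set gave -0.47. Igfals, the acid labile subunit that carries IGF1 in blood, lay at 1906 and 1462 against 660 to 1212 (-0.73 ± 0.22, SE). Igfbp1, an IGF-binding protein, overlapped: 357 and 486 in the controls, 3253 and 6814 after fraction 1, and 274 and 812 after fraction 2. Its high values were thus in fraction 1 arrays.

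**Figure D3:**
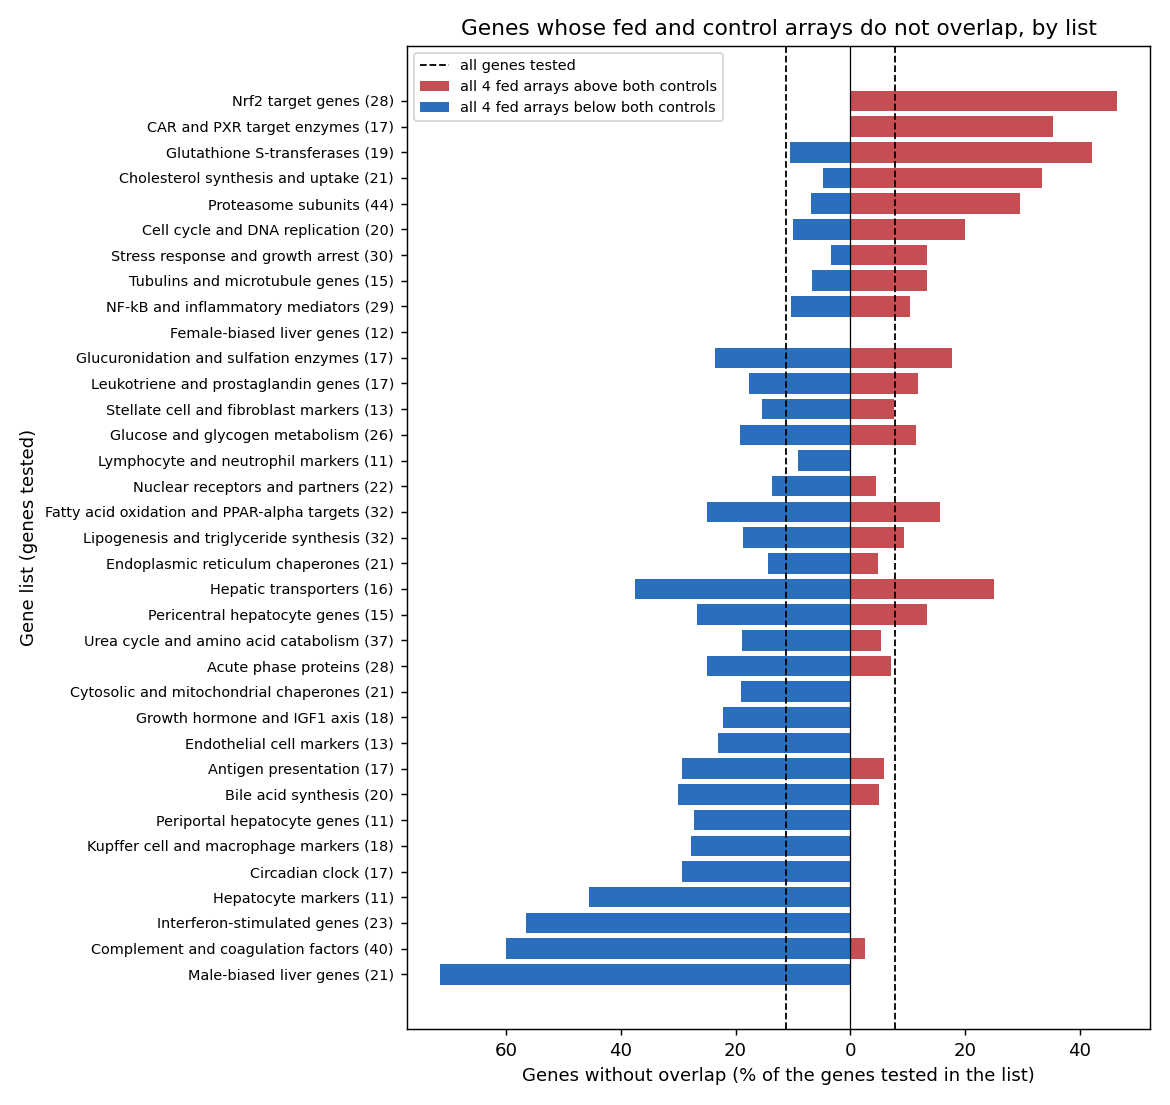
Share of the tested genes of each list, in percent, whose 4 fed arrays all lie above (right) or all below (left) both control arrays. The number of genes tested stands in parentheses and dashed lines give the shares over all genes, 7.85% above and 11.2% below. Nrf2 target genes reach 46.4% above and male-biased liver genes 71.4% below.

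Complement and coagulation factors, proteins that the liver secretes, had 40 tested members. Of these C8b fell, 24 had all fed arrays below the controls and 1 had them above, and the median was -0.29. The count below was 17 with quantile normalization and 19 with median centring. C6 and C9, partners of C8b in the membrane attack complex, were not called: C6 lay at 1393 and 1603 against 325 to 1143 (-1.13 ± 0.22, SE), and C9 at 8677 and 13463 against 2570 to 8511 (-1.06 ± 0.22, SE). Fraction 1 arrays were the lowest for both. Mbl1, a mannose-binding lectin, lay at 2994 and 4163 against 1462 to 2801 (-0.74 ± 0.18, SE). The hepatocyte markers Alb, Ttr and Ahsg, plasma proteins made by hepatocytes, differed by -0.33, -0.39 and -0.33. Of 11 hepatocyte markers, 2 had a difference above 0, up to 0.23, and the median was -0.31 (-0.040 with quantile normalization). All fed arrays lay below the controls in 5 of the 11, in 0 with quantile normalization and in 7 with median centring. The summed signal of the 11 markers was 184626 and 206747 in the controls and 146566 to 176378 in the fed arrays. Whether that difference has a part in the complement list was not tested.

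Interferon-stimulated genes had 23 tested members, of which 0 were called, 13 had all fed arrays below the controls (7 with median centring) and 23 had a difference under 0, with a median of -0.40. Over all 9209 genes, 5272 had a difference under 0. Oas1a, an enzyme of the antiviral 2-5A pathway, read 273 and 367 in the controls, 76.5 and 37.2 after fraction 1, and 214 and 175 after fraction 2 (-1.46 ± 0.29, SE; limma adjusted p 0.113). Psmb9, a catalytic subunit of the immunoproteasome, lay at 499 and 545 against 316 to 408 (-0.51 ± 0.17, SE).

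Of 44 tested proteasome subunits, 0 were called, 13 had all fed arrays above the controls and 3 had them below. In 39 the difference was above 0, beside 3937 of all 9209 genes, and the median of the list was 0.16. The 3 below were Psmb8, Psmb9 and Psmb10, known as catalytic subunits of the immunoproteasome; the 3 are named because they are the ones below, chosen after their values were seen. Psmb10 read 1175 and 1118 in the controls and 657 to 1025 in the fed arrays (-0.52 ± 0.16, SE). Among those above were Psmg2, an assembly chaperone, at 519 and 744 against 1168 to 1356 (0.97 ± 0.18, SE; limma adjusted p 0.0942), and the regulatory subunits Psmd14 (0.57 ± 0.15, SE) and Psmd4 (0.46 ± 0.13, SE). The next probe sets of Psmg2 and Psmd4 gave smaller differences, 0.21 and 0.33. With median centring the list had 16 genes above and 2 below.

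Cholesterol synthesis and uptake genes had 21 tested members, 0 called, 7 with all fed arrays above the controls and 1 below, and a median of 0.45. Without control replicate 2 the median was 0.14. Hmgcs1, which commits acetyl groups to the mevalonate pathway, read 4530 and 4071 in the controls, 8274 and 9911 after fraction 1, and 6082 and 6137 after fraction 2 (0.79 ± 0.12, SE; limma adjusted p 0.0607). Idi1, an isomerase of the same pathway, read 1033 and 566 in the controls and 1241 to 2556 in the fed arrays (1.11 ± 0.25, SE). Idi1 passed the threshold without control replicate 1, at 1.54 (limma adjusted p 0.0290). Cyp7a1, the rate-limiting enzyme of bile acid synthesis, overlapped, at 2002 and 777 in the controls and 1481 to 2744 in the fed arrays. Its difference was 0.72 ± 0.32 (SE), 1.39 without control replicate 1 (limma adjusted p 0.0267) and 0.04 without control replicate 2. Cyp8b1, which sets the share of cholic acid, lay at 3395 and 3967 against 5110 to 6929 (0.74 ± 0.16, SE; limma adjusted p 0.136). The bile acid synthesis list that holds both had 20 tested members, 0 called, 14 with a difference under 0 and a median of -0.17. Only Cyp8b1 had all fed arrays above the controls (5.0%), and 6 genes had them below (30.0%), or 5 with median centring. Over all genes the shares were 7.85% and 11.2%.

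**Figure D4:**
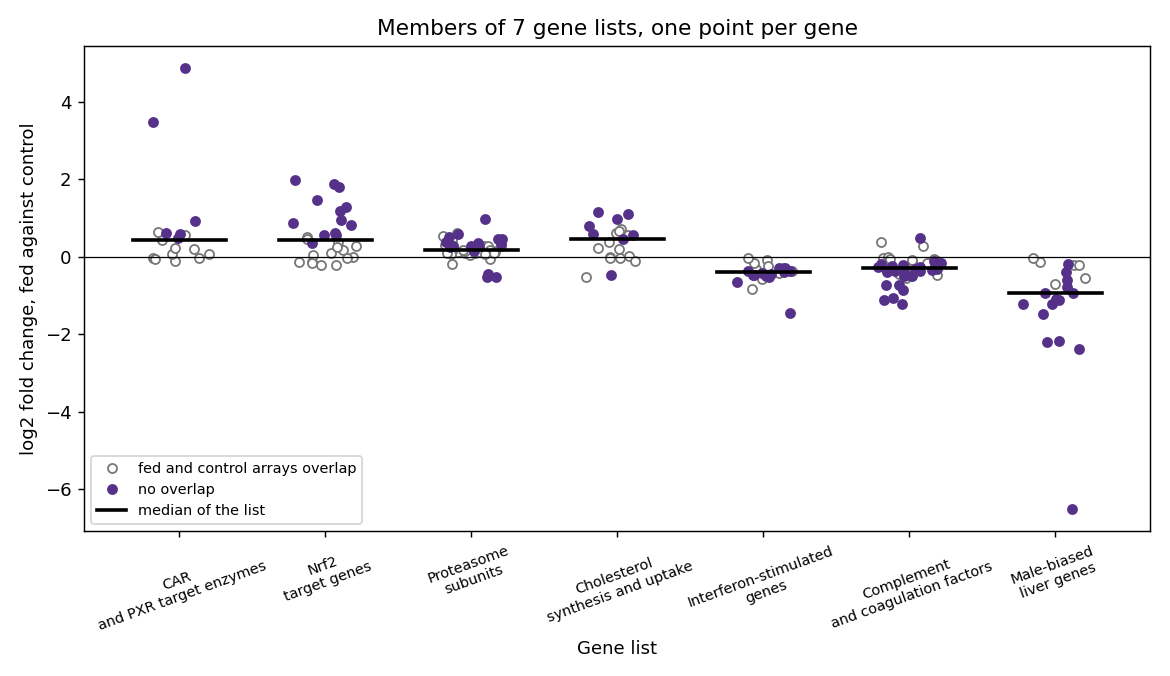
Log2 fold change of fed against control for each tested gene of 7 lists, 1 point per gene. Filled points have no overlap between fed and control arrays, open points do, and bars mark list medians. Cholesterol synthesis has the highest median of the 7, at 0.45, followed by CAR and PXR target enzymes (0.43), Nrf2 target genes (0.42), proteasome subunits (0.16), complement and coagulation factors (-0.29), interferon-stimulated genes (-0.40) and male-biased liver genes (-0.93).

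Genes of the pathway that boswellic acids are known for were not called. Alox5 itself was too dim to be tested. Alox5ap, its activating protein, read 268 and 391 in the controls and 289 to 346 in the fed arrays (-0.05 ± 0.20, SE). Of 17 tested leukotriene and prostaglandin genes, 0 were called, 2 had all fed arrays above the controls (11.8%) and 3 below (17.6%). Over all genes the shares were 7.85% and 11.2%. Ptgds was the lowest of the 17, at -2.12. Saa1, an acute phase protein, ranged from 206 to 3440 within the fed side and lay at 600 and 625 in the controls (0.50 ± 0.67, SE). Of 29 tested NF-kB genes and inflammatory mediators, 0 were called, 3 had all fed arrays above and 3 below. That is 10.3% each way, near the shares over all genes.

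Lipid genes were mixed. Fasn, fatty acid synthase, read 6135 and 3166 in the controls and 4309 to 5243 in the fed arrays (0.11 ± 0.23, SE, and -0.36 without control replicate 2). Cyp4a14, a PPAR-alpha target, read 3586 and 1378 in the controls and 429 to 2299 in the fed arrays (-1.12 ± 0.60, SE). Cd36, a fatty acid transporter, lay at 121 and 98.7 against 207 to 463 (1.40 ± 0.24, SE; limma adjusted p 0.0716). Acaa2, a mitochondrial thiolase, lay at 15028 and 16926 against 10934 to 12001 (-0.46 ± 0.10, SE). Of 32 fatty acid oxidation genes 0 were called, with 5 above (15.6%) and 8 below (25.0%), beside 7.85% and 11.2% over all genes.

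Markers of other cells of the liver were compared too. Of 18 Kupffer cell and macrophage markers, 0 were called, 5 had all fed arrays below the controls and 0 above. The 5 are 27.8%, beside 11.2% over all genes. A difference above 0 was found in 7, and the median of all 18 was -0.14. It was -0.054 without fraction 2 replicate a and -0.068 with median centring. The summed signal of the 18 markers was 12351 and 13376 in the controls and 10960 to 12780 in the fed arrays, so the groups overlapped. Tyrobp, a signalling adaptor of myeloid cells, lay at 662 and 636 against 405 to 481 (-0.53 ± 0.16, SE). Clec4f, which defines mouse Kupffer cells, overlapped, at 1035 and 989 in the controls and 647 to 1049 in the fed arrays. Of 13 endothelial markers 3 had all fed arrays below (23.1%, beside 11.2% over all genes), 0 above, and 4 had a difference above 0. The lowest was Stab2, a scavenger receptor of sinusoidal cells, at 1204 and 1289 against 581 to 994 (-0.64 ± 0.16, SE). Of 13 stellate cell markers 2 had all fed arrays below (15.4%), 1 above (7.69%), and 4 had a difference above 0. The lowest was Reln, a secreted glycoprotein, at 2531 and 2963 against 1092 to 1883 (-0.85 ± 0.17, SE). Alas2, an erythroid heme enzyme, overlapped: 2244 and 2610 in the controls, 793 and 723 after fraction 1, and 2656 and 1502 after fraction 2. The part of these cells in the interferon list was not tested.

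Of 17 circadian clock genes, 0 were called, 5 had all fed arrays below the controls and 0 above, and the median was -0.37. The 5 are 29.4%, beside 11.2% over all genes. Tef, a clock output factor, lay at 4107 and 3501 against 2294 to 3154 (-0.53 ± 0.15, SE). Rora, a nuclear receptor of the clock, lay at 1669 and 1877 against 1187 to 1356 (-0.44 ± 0.15, SE). The labels give no time of day for the samples. Hsph1, a chaperone of the heat shock family outside the clock list, lay at 1418 and 957 against 246 to 730 (-1.30 ± 0.27, SE; limma adjusted p 0.124). Of 21 cytosolic and mitochondrial chaperones, 0 were called, 4 had all fed arrays below the controls (19.0%, beside 11.2% over all genes) and 0 above. With median centring 1 had them below.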

How the data were processed

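Liver RNA was measured on 6 Affymetrix arrays. The deposited table gives 1 signal intensity per probe set and array on a linear scale, as the authors left it; software and summary method: not given in the sources used here. Scan batch and chip lot came from the authors' experiment files. Of 22690 probe sets, 64 controls were left out, and 14755 reached their array's 40th percentile in at least 2 arrays. Platform annotation gave 20380 probe sets 1 symbol, 691 several and 1555 none; a gene was named only from a single symbol. A pseudocount of 16 was added before log2. R 4.3.3 and limma 3.58.1 (lmFit, eBayes with trend, 3 group means, 3 residual and 5.43 prior degrees of freedom) gave the mean of both fractions minus control, two-sided, with Benjamini-Hochberg adjustment; the code was tested on simulated data. Named genes were up to 14 largest increases and decreases, the 6 widest gaps each way, 16 chosen genes, and up to 4 members of each list by smallest p. The members and lists were chosen with earlier results of these data known. Alternatives were quantile normalization, median centring, no filter on dim probe sets or one at the 60th percentile, a floor of 50, a pseudocount of 1 or of 64, no trend, scan batch, chip lot or replicate letter as a block, scan batch 1 alone, 2 group means, other probe sets, and leaving out each array. Figures used Python 3.11.15 and matplotlib 3.10.9.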

Additional observations from a re-analysis of the deposited data

Results flagged for a closer look

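Rora, a nuclear receptor of the clock, read 1187 in fraction 1 replicate b, below the other fed arrays, whose gap to it was 0.875 of the whole fed range. Slc22a7, an organic anion transporter, read 566 in fraction 2 replicate b, above the other fed arrays, with a gap of 0.930 of the range. Chance alone flags about 1 in 20 groups in this way, and many genes were looked at. The probe set without a symbol differed by 2.26 on the log2 scale between fraction 1 and fraction 2, by a limma test of the difference with an adjusted p of 0.0445. That call was lost under the alternatives named beside it, among them quantile normalization (0.0548) and median centring (0.105).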

How the results depend on the processing

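Across the alternatives the 20 called genes kept their direction, except that the next Gadd45b probe set gave -0.26. The count of 31 called probe sets (25 higher, 6 lower) was 18 (15 and 3) without a filter, 16 (13 and 3) without a variance trend, 73 (53 and 20) with scan batch as a block, 16 (13 and 3) in scan batch 1 alone and 14 (12 and 2) with 2 group means. Chip lot as a block gave 14 lower and median centring 2 lower. Leaving out 1 array gave 15 to 102 called, 12 to 89 higher and 2 to 13 lower; the 102 came without control replicate 1, when 29 of the 31 were called, and the cause was not tested. Of the 31, 7 were called under all 19 alternatives. The 2687 probe sets whose fed and control arrays do not overlap numbered 9480 in scan batch 1 alone and 3393 to 8260 with 1 array left out, since fewer arrays need to stand apart. Between the fractions, the 2 calls were 0 with quantile normalization, median centring, a pseudocount of 1, no filter, scan batch as a block, scan batch 1 alone and no variance trend, 16 with chip lot as a block, and 0 to 11 with 1 array left out. Among genes not called, Cyp3a11 was -0.14 in scan batch 1 alone and -0.14 to 0.28 with 1 array left out, Cyp1a2 -0.53 to 0.049, Fasn -0.36 to 0.59, Alox5ap -0.31 to 0.21 (0.024 with median centring) and Saa1 -0.059 to 1.06. Among the named genes without a call, scan batch as a block called Hmgcs1 (adjusted p 0.0479), Insig2 (0.0434), Cd36 (0.0459) and Tubb4b (0.0489), and chip lot as a block called Cyp8b1 (0.0492), C9 (0.0347) and Hsph1 (0.0263), besides Ptgds and Slc22a7 with either. Chip lot 3 held no control array, so with chip lot as a block the fed arrays of that lot had no control beside them. Igfbp1 was called with the letter as a block (0.0302). The replicate letter of the fed arrays as a replicate block gave 22 called (18 higher, 4 lower), of which 18 were among the 31; the letters' deviations correlated at 0.030 between the fractions, over probe sets, so the letters are not taken as pairs. Without 1 array, its group has a lone array assumed to vary like the other groups. Signals near the pseudocount, as for Hsd3b5 after fraction 1, limit the size of a change but not its direction here, and no detection calls were used.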

Other observations

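Further named list members not yet described gave the values that follow, as log2 differences; limma called none of them. Gulo, the last enzyme of vitamin C synthesis, lay at 5460 and 8671 units in the controls and 2854 to 4227 in the fed arrays (-1.03 after fraction 1 and -0.98 after fraction 2). Prodh, which starts proline breakdown, lay at 4335 and 4276 against 2513 to 3223 (-0.61 ± 0.12, SE). Il6st, the signalling receptor gp130 of the interleukin-6 family, lay at 1070 and 1172 against 587 to 745 (-0.73 ± 0.15, SE). Ephx2, the soluble epoxide hydrolase, lay at 9737 and 9050 against 5963 to 8031 (-0.40 ± 0.12, SE). Hspa5, the chaperone BiP of the endoplasmic reticulum, lay at 5359 and 7323 against 4044 to 5056 (-0.49 ± 0.16, SE). On the higher side, Papss2, which makes the sulfate donor PAPS, lay at 2265 and 1896 against 2707 to 3583 (0.63 ± 0.15, SE). The next Papss2 probe set gave 0.33. Acot1, a cytosolic acyl-CoA thioesterase, lay at 339 and 394 against 691 to 993 (1.15 ± 0.20, SE). Krt18, a keratin of hepatocytes and bile ducts, lay at 3569 and 3926 against 4309 to 5833 (0.44 ± 0.13, SE). In each of these genes all fed arrays lay on 1 side of both controls.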
